A study of Mus musculus with 18 samples.

Results

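The 10 antioxidant genes described here were the glutathione peroxidases Gpx1, Gpx3, Gpx4, Gpx6, Gpx7 and Gpx8, the superoxide dismutases Sod1 and Sod2, the catalase gene Cat, and Nfe2l2, which encodes the transcription factor NRF2. They were selected by symbol from the 55421 genes of the deposited count table, with earlier results of these libraries known, so their fold changes and adjusted p-values are given as a description. All 10 were found, and all 10 of them were among the 20914 genes tested. Each of 18 C57BL/6 mice, 12 to 14 months old, gave 1 RNA library of the striatum. The groups were 5 WT mice, 5 zQ175 mice, 3 CK2a'(+/-) mice and 5 zQ175:CK2a'(+/-) mice. The zQ175 allele is a full-length Huntingtin knock-in carried as 1 copy in the study's mice, and serves as a model of Huntington's disease. CK2a'(+/-) mice lack 1 allele of Csnk2a2, the gene of the CK2 catalytic subunit alpha prime, and zQ175:CK2a'(+/-) mice carry both changes.

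Superoxide dismutases convert superoxide, a by-product of mitochondrial respiration and of oxidases, into hydrogen peroxide. Catalase breaks hydrogen peroxide down in peroxisomes, and glutathione peroxidases reduce hydrogen peroxide or lipid peroxides, using glutathione as the electron donor in the classical members. Several glutathione peroxidases carry selenocysteine at the catalytic site, inserted at a UGA codon, whereas others carry cysteine there. NRF2 is held back by KEAP1 and activates many antioxidant genes when it is released.

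The catalytic codon is printed for each of the 6 glutathione peroxidases because it separates the selenium-dependent members from the others. Each line holds 27 bases of the coding strand in GRCm38, 5′ to 3′, with the catalytic codon in capitals.
Gpx1, chr9:108339439-108339465, plus strand: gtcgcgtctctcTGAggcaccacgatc
Gpx3, chr11:54907244-54907270, plus strand: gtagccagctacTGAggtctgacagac
Gpx4, chr10:80054725-80054751, plus strand: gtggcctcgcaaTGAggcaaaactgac
Gpx6, chr13:21313765-21313791, plus strand: gtggcatccttcTGTggcctgacagct
Gpx7, chr4:108403418-108403444, minus strand: gtagctagcgaaTGTggcttcacagac
Gpx8, chr13:113045649-113045675, minus strand: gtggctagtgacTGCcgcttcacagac

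Gpx1, Gpx3 and Gpx4 had TGA at this position, annotated as selenocysteine in the GENCODE gene models used, and Gpx6, Gpx7 and Gpx8 had a cysteine codon. The codon was number 47 of Gpx1, 73 of Gpx3 and of Gpx6, 129 of a Gpx4 reading frame of 254 codons, 56 of Gpx7 and 79 of Gpx8, counted from the start codon. Every window lay within a single coding exon.

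All levels below are CPM, read counts scaled to equal library sizes with TMM factors, unless CPM per kilobase is named. Total counts per library lay between 13612381 and 22702547, and the targeted gene Csnk2a2 followed the labels, at 14.7 to 19.9 CPM in the 8 mice with 1 allele and 29.4 to 37.5 CPM in the 10 mice with 2 alleles. The summed level of 9 striatal projection neuron markers lay between 1460 and 6432 CPM, with none of the 9 at 0 in any library, so the labelled tissue was recovered. The 6 choroid plexus markers summed to 978 to 3090 CPM in 4 libraries (WT replicates 1 and 3, CK2a'(+/-) replicate 1 and zQ175:CK2a'(+/-) replicate 2) and to at most 22.4 CPM in the other 14. The 6 cortical excitatory neuron markers summed to 320.2 CPM in zQ175 replicate 5 and to between 23.1 and 93.0 CPM in the other 17. The 6 oligodendrocyte markers summed to 5399 to 7459 CPM in WT mice and to 3525 to 5302 CPM in zQ175 mice.

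Levels of different genes can be compared only per length. On the scale of CPM per kilobase of exon length, averaged over the 18 mice, Gpx4 stood at 47.8 ± 9.61 (SD, n = 18), Gpx1 at 44.5 ± 7.57 and Sod1 at 39.9 ± 7.61. The ranges of these 3 genes overlapped, so their order was not larger than the spread between mice. Sod2, the mitochondrial superoxide dismutase, followed at 14.4 ± 1.28 CPM per kilobase and lay below every Sod1 value. Cat stood at 10.3 ± 1.10 CPM per kilobase, and its range met that of Sod2 only at the edge. Nfe2l2 at 3.39 ± 0.477 and Gpx6 at 3.32 ± 3.77 CPM per kilobase had overlapping ranges. Gpx3 at 2.55 ± 2.22, Gpx8 at 1.29 ± 0.992 and Gpx7 at 0.893 ± 0.352 CPM per kilobase were the lowest and also overlapped one another. The deposited lengths sum all annotated exons, 10008 bases for Sod2 and 3970 bases for Sod1 against 1441 bases for Gpx1, so a gene with long, little-used exons appears lower on this scale.

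The spread between mice differed widely from gene to gene. Sod2, Cat and Nfe2l2 varied by 8.87%, 10.7% and 14.1% of their mean (coefficient of variation over 18 mice), whereas Gpx6 varied by 113%, Gpx3 by 87.3% and Gpx8 by 76.7%. Gpx6 counts ran from 3 in zQ175 replicate 5 to 367 in CK2a'(+/-) replicate 2. Of the remaining glutathione peroxidases, Gpx5 had 0 counts in all 18 libraries and Gpx2 had 27 counts in total, so neither was tested.

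**Figure D1:**
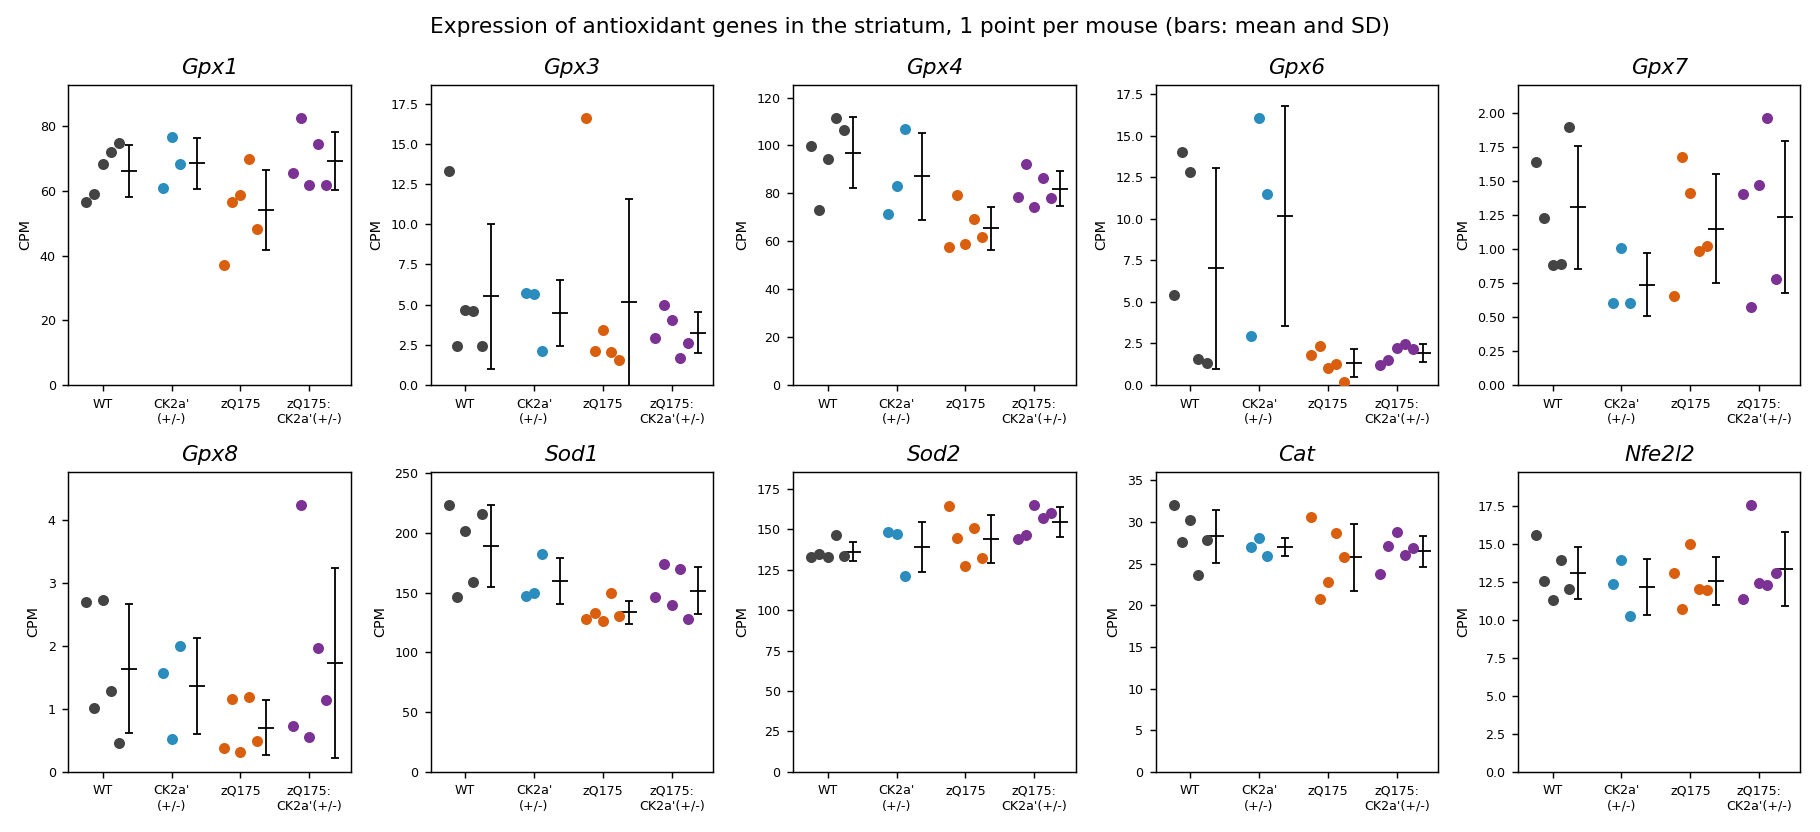
Level of each of the 10 genes in CPM (y axis, linear, from 0) by genotype (x axis), with 1 point per mouse and the group mean ± SD as a bar beside the points (the lower bar of Gpx3 in zQ175 is clipped at 0). Gpx4 and Sod1 were lower in most zQ175 mice, Gpx6 was between 0.161 and 2.49 CPM in all 10 mice with the zQ175 allele, and Sod2, Cat and Nfe2l2 showed little spread.

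The first comparison asked how the Huntington's disease allele alone was associated with these genes. In zQ175 against WT mice, Gpx4, Sod1 and Gpx6 were lower past the threshold of an FDR under 0.1 (edgeR quasi-likelihood test, Benjamini-Hochberg adjustment over 20914 genes), and no gene of the 10 was higher past it. Of all genes tested, 1.10% were called in this comparison, and 0.712% of all genes tested were called lower. The log2 fold change was negative for 9 of the 10 genes, with a median of -0.24, beside a median of 0.0042 and 49.4% negative over all genes tested. In bulk tissue, fewer cells of a type and less RNA per cell cannot be told apart in any of these values.

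Gpx4 encodes the peroxidase that reduces lipid hydroperoxides within membranes and is the main brake on ferroptosis, an iron-dependent form of cell death. The gene lies on chromosome 10 (GRCm38, 80047166 to 80056439, plus strand). In WT mice replicates 1 to 5 it stood at 99.8, 73.1, 94.2, 111.4 and 106.6 CPM. In zQ175 mice it stood at 57.4, 79.5, 58.9, 69.1 and 61.9 CPM. Only the lowest WT mouse, replicate 2, fell within the zQ175 range, and the other 4 WT mice lay above every zQ175 mouse. The log2 fold change was -0.57 ± 0.12 (SE), or 0.673-fold, with an FDR of 0.0484 by edgeR. CK2a'(+/-) mice stood at 71.3, 83.1 and 106.8 CPM, and zQ175:CK2a'(+/-) mice at 78.7, 92.2, 74.2, 86.2 and 78.0 CPM. All 5 zQ175:CK2a'(+/-) mice thus lay between 69.1 CPM, a level that only a single zQ175 mouse exceeded, and 94.2 CPM, a level below which only a single WT mouse lay.

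Part of the Gpx4 sequence is shared with a processed pseudogene. Of the 50-base windows of the Gpx4 transcript with this reading frame, 61.7% also occur in the gene models of other genes, Gpx4-ps2 being the main one, and the authors removed reads with duplicated mappings or low mapping quality before counting. How many reads from the shared windows were kept, and in which row, is therefore uncertain. Gpx4-ps2 (GRCm38 chromosome 10, 45875291 to 45876086) received 26.1 to 37.6 CPM in WT mice and 20.4 to 27.2 CPM in zQ175 mice. It was lower as well, with a log2 fold change of -0.44 ± 0.12 (edgeR FDR 0.0957). The sum of both rows was 130.5 ± 19.0 CPM (SD, n = 5) in WT and 90.0 ± 11.6 CPM (n = 5) in zQ175 mice, with ranges of 99.2 to 147.2 and 79.3 to 106.4 CPM. The sum was thus lower in zQ175 mice in the same direction as Gpx4 alone, with the 2 ranges overlapping.

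Sod1 encodes the cytosolic copper and zinc superoxide dismutase and lies on chromosome 16 (GRCm38, 90220754 to 90226329, plus strand). WT mice replicates 1 to 5 stood at 223.4, 146.7, 201.6, 159.3 and 215.7 CPM. The zQ175 mice stood at 127.8, 133.0, 126.4, 150.1 and 130.3 CPM. The highest zQ175 mouse overlapped the lowest WT mouse, and the other 4 zQ175 mice lay below all WT mice. The log2 fold change was -0.50 ± 0.11, or 0.705-fold, with an edgeR FDR of 0.0594. CK2a'(+/-) mice stood at 147.0, 149.9 and 182.1 CPM and zQ175:CK2a'(+/-) mice at 146.7, 174.0, 139.8, 169.6 and 128.0 CPM, within or between the ranges of the other groups. The Sod1 transcript shares 23.1% of its 50-base windows with the gene model Gm8566, which received 7.50 to 16.1 CPM and had a log2 fold change of -0.38 ± 0.16 (edgeR FDR 0.296) between zQ175 and WT mice.

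Gpx6 encodes a secreted glutathione peroxidase, known mainly from the olfactory epithelium, that carries cysteine in mouse. It lies on chromosome 13 (GRCm38, 21312125 to 21319624, plus strand). WT mice replicates 1 to 5 stood at 5.43, 14.0, 12.8, 1.55 and 1.30 CPM. The zQ175 mice stood at 1.78, 2.38, 1.05, 1.25 and 0.161 CPM. The WT mice fell into a high part of 3 and a low part of 2, and the low 2 lay within the zQ175 range. The log2 fold change was -2.39 ± 0.62, or 0.191-fold, with an edgeR FDR of 0.0957. CK2a'(+/-) mice stood at 2.98, 16.1 and 11.5 CPM, and zQ175:CK2a'(+/-) mice at 1.18, 1.51, 2.20, 2.49 and 2.16 CPM. All 3 CK2a'(+/-) mice lay above all 10 mice carrying the zQ175 allele, while 3 of the 5 WT mice did.

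The marker lists differed in direction. All 9 striatal projection neuron markers had negative log2 fold changes in zQ175 against WT mice and 3 of them passed FDR 0.1, and all 6 oligodendrocyte markers were negative and 4 passed. All 6 microglial markers were negative and 1, C1qa, passed, and all 6 astrocyte markers and all 6 choroid plexus markers were negative with 0 past FDR 0.1 by edgeR, at medians of -0.12 and -2.62. An unadjusted p under 0.05 by edgeR was found for 8 striatal projection neuron, 5 oligodendrocyte and 2 microglial markers. It was found for 0 astrocyte and 2 choroid plexus markers, beside 13.9% of all genes. Past FDR 0.1 were 1.10% of all genes. All 5 tested cortical excitatory neuron markers were positive, each with an unadjusted p under 0.05 by edgeR, and 1 passed FDR 0.1. All 4 tested red blood cell markers were also positive, with 0 past FDR 0.1. The oligodendrocyte precursor, endothelial, pericyte and fibroblast lists held both signs, with 0 past FDR 0.1. For Gpx6, the 2 WT mice with the lowest levels, replicates 4 and 5, were also those with the lowest summed striatal projection neuron markers among WT mice, 2739 and 2678 CPM against 4191 to 6411 CPM in the other 3. Summed markers were 1460 to 2926 CPM in zQ175, 4529 to 6432 CPM in CK2a'(+/-) and 2405 to 3430 CPM in zQ175:CK2a'(+/-) mice. The part of these markers in the lower Gpx4, Sod1 and Gpx6 levels was not tested.

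**Figure D2:**
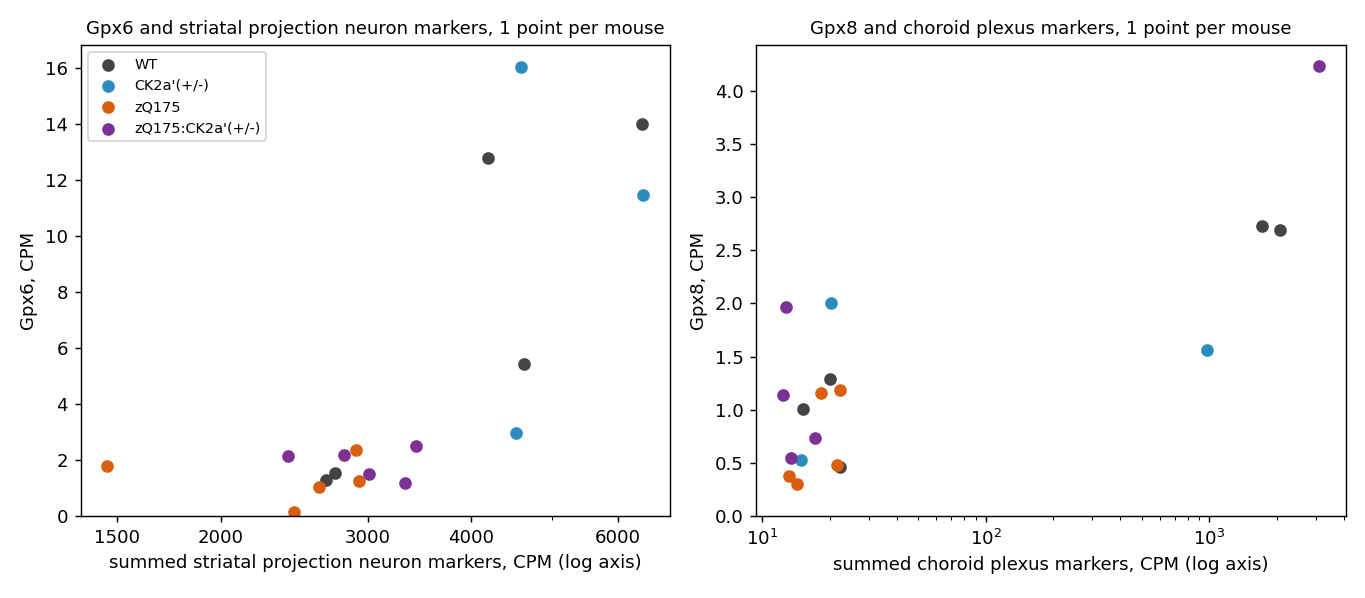
Left, Gpx6 (y axis, CPM) against the summed CPM of 9 striatal projection neuron markers (x axis, log scale); right, Gpx8 (y axis, CPM) against the summed CPM of 6 choroid plexus markers (x axis, log scale), with 1 point per mouse coloured by genotype. Mice with Gpx6 above 5 CPM all had summed striatal markers of at least 4191 CPM, but CK2a'(+/-) replicate 1 had 4529 CPM of these markers and Gpx6 at 2.98 CPM. The highest Gpx8 value, 4.24 CPM, was in the library with the highest choroid plexus sum, 3090 CPM.

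The 3 calls depended on single libraries and on the fit. With only the WT and zQ175 mice fitted none of the 3 passed (edgeR FDR 0.149 for Gpx4, 0.153 for Sod1 and 0.197 for Gpx6), and Gpx6 also missed the threshold with the Xist level as covariate (FDR 0.12) or a robust fit (FDR 0.154). Without the 4 libraries high in choroid plexus markers, none of the 3 passed, with log2 fold changes of -0.57 for Gpx4 (FDR 0.496), -0.38 for Sod1 (FDR 0.498) and -2.07 for Gpx6 (FDR 0.498) by edgeR, and 1 gene of all passed in that fit. With mice left out in turn, the Gpx4 call was lost without WT replicate 1, WT replicate 3 or zQ175 replicate 5, the Sod1 call without those or zQ175 replicate 1, and the Gpx6 call in 13 of 18 cases, with FDR values up to 0.155, 0.167 and 0.230. Calls over all genes, 230 with every mouse, were 10, 0, 0 and 77 without these 4 mice in turn. They were 0 with only the WT and zQ175 mice fitted. The Gpx4 log2 fold change was -0.58, -0.58 and -0.55 in the 3 fits that lost its call.

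The other genes did not pass in this comparison. Gpx1, the widely expressed cytosolic glutathione peroxidase (chromosome 9, 108338903 to 108340343, plus strand), stood at 56.6 to 74.9 CPM in WT and 37.0 to 69.8 CPM in zQ175 mice, with a log2 fold change of -0.29 (95% interval -0.57 to -0.016, edgeR FDR 0.334). Its unadjusted p was 0.0389 by edgeR, and with Gpx4, Sod1 and Gpx6 it made 4 of 10 genes at an unadjusted p under 0.05, beside 13.9% of all genes. Sod2 (chromosome 17, 13006846 to 13040063, plus strand) was the only gene with a positive value, 0.08 (95% interval -0.082 to 0.24). Its levels were 132.8, 134.9, 132.6, 146.8 and 133.8 CPM in WT and 164.5, 144.8, 127.6, 151.1 and 132.4 CPM in zQ175 mice, with both groups overlapping. Cat (chromosome 2, 103453849 to 103485160, minus strand) stood at 23.6 to 32.0 CPM in WT and 20.8 to 30.7 CPM in zQ175 mice, and its log2 fold change was -0.13 (95% interval -0.36 to 0.091). Nfe2l2 (chromosome 2, 75675513 to 75704641, minus strand) stood at 11.3 to 15.6 and 10.7 to 15.0 CPM, a log2 fold change of -0.06 (95% interval -0.35 to 0.23). The intervals of Sod2, Cat and Nfe2l2 all lay within 0.36 of 0 on the log2 scale.

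The lowly expressed peroxidases left wide intervals. Gpx8, a peroxidase of the endoplasmic reticulum (chromosome 13, 113042753 to 113046410, minus strand), stood at 2.69, 1.01, 2.72, 1.29 and 0.463 CPM in WT, 0.375, 1.16, 0.307, 1.19 and 0.484 CPM in zQ175, 1.57, 0.525 and 2.00 CPM in CK2a'(+/-) and 0.732, 4.24, 0.551, 1.96 and 1.14 CPM in zQ175:CK2a'(+/-) mice. The highest values in WT and in zQ175:CK2a'(+/-) mice were those of the libraries high in choroid plexus markers. Among CK2a'(+/-) mice the library high in these markers, replicate 1, had 1.57 CPM, below replicate 3 at 2.00 CPM. Its log2 fold change in zQ175 against WT was -1.21 (95% interval -2.45 to 0.025, edgeR FDR 0.370), and without those libraries -0.40 (FDR 0.901). Gpx7, also of the endoplasmic reticulum (chromosome 4, 108400390 to 108406961, minus strand), stood at 0.574 to 1.96 CPM over all mice, 8 to 41 counts per library, with a log2 fold change of -0.19 (95% interval -0.997 to 0.61). Gpx3, a secreted peroxidase of plasma (chromosome 11, 54902453 to 54910377, plus strand), stood at 13.3, 2.46, 4.70, 4.62 and 2.46 CPM in WT and 16.6, 2.14, 3.44, 2.04 and 1.56 CPM in zQ175 mice. A single mouse in each of these groups was high, and the log2 fold change was -0.08 (95% interval -1.25 to 1.09), moving to 0.54 without WT replicate 1 and to -1.26 without zQ175 replicate 1.

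**Figure D3:**
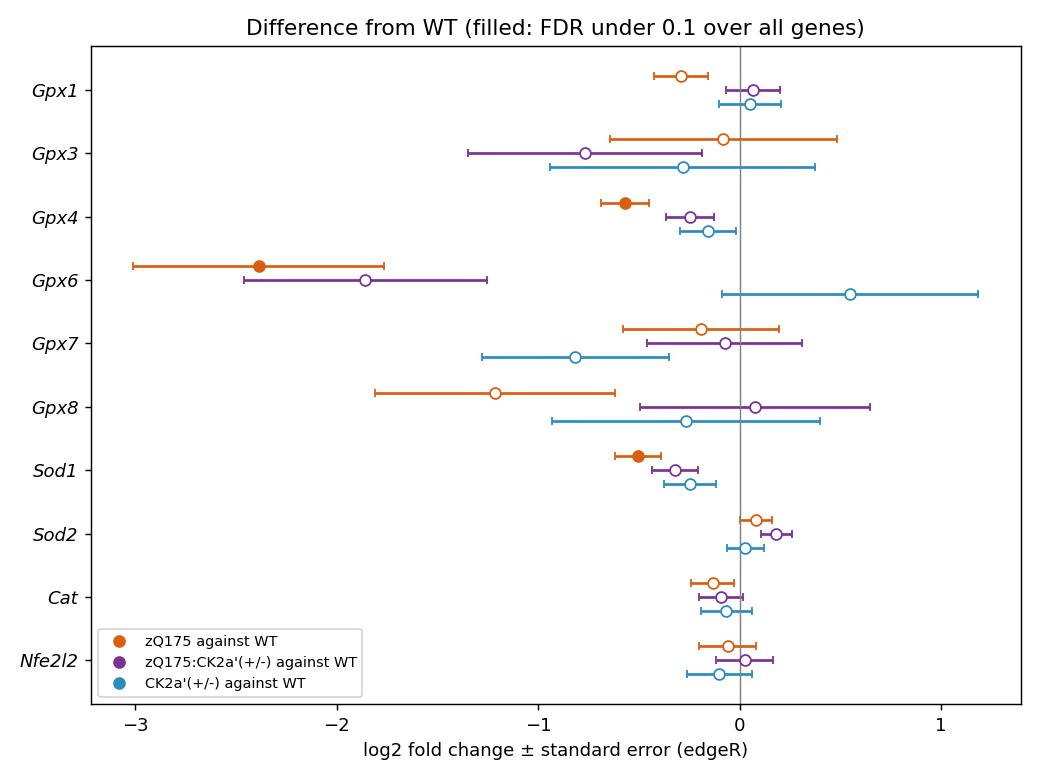
Log2 fold change ± standard error against WT (x axis) of the 10 genes (y axis) in zQ175, zQ175:CK2a'(+/-) and CK2a'(+/-) mice, from one edgeR fit of 18 libraries, with filled points where the FDR was under 0.1. The 3 filled points are Gpx4, Gpx6 and Sod1 in zQ175 against WT, and all 3 comparisons share the same WT mice.

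The remaining comparisons placed the loss of a Csnk2a2 allele beside these values. In zQ175:CK2a'(+/-) against WT mice, 0 of the 10 genes passed FDR 0.1 by edgeR (0.0143% of all genes) or by DESeq2 (123 of 16971 genes). By edgeR 3 had an unadjusted p under 0.05, beside 9.13% of all genes. These were Gpx6 with a log2 fold change of -1.86 ± 0.60 (edgeR FDR 0.374), Sod1 with -0.32 ± 0.11 (FDR 0.397) and Sod2 with 0.18 ± 0.078 (FDR 0.490). Gpx4 was at -0.25 ± 0.12 (FDR 0.549) and Gpx1 at 0.07 ± 0.13. This comparison and that of zQ175 mice used the same WT mice, so the values stand side by side and are not independent.

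Direct contrasts between zQ175 and zQ175:CK2a'(+/-) mice left every gene above the threshold. By edgeR and by DESeq2, 0 of the 10 passed FDR 0.1 (0.0143% of all genes by edgeR and 39 of 26903 by DESeq2). By edgeR 3 had an unadjusted p under 0.05, beside 6.27% of all genes. Gpx1 differed by a log2 fold change of -0.36 ± 0.13 (edgeR FDR 0.644), at 37.0 to 69.8 CPM in zQ175 and 61.9 to 82.5 CPM in zQ175:CK2a'(+/-) mice. Gpx4 differed by -0.32 ± 0.12 (FDR 0.643), and Gpx8 by -1.29 ± 0.60 (FDR 0.765), the last moving to -0.66 without zQ175:CK2a'(+/-) replicate 2. Gpx6 differed by -0.53, with a 95% interval of -1.85 to 0.80, and Sod1 by -0.18, with an interval of -0.42 to 0.051. In each case the zQ175 mice and the zQ175:CK2a'(+/-) mice overlapped.

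The Csnk2a2 allele without the knock-in gave no call either. In CK2a'(+/-) against WT mice, 0 of 10 genes passed by edgeR (0.0143% of all genes) or DESeq2 (11 of 37559 genes). By edgeR 0 had an unadjusted p under 0.05, beside 4.48% of all genes. Gpx6 was at 0.55 (95% interval -0.78 to 1.87), Gpx7 at -0.82 (-1.78 to 0.15), Sod1 at -0.25 (-0.52 to 0.025) and Gpx4 at -0.16 (-0.44 to 0.13) on the log2 scale.

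When the knock-in was compared on the background of a single Csnk2a2 allele, Gpx6 was the gene with the largest difference of the 10. In zQ175:CK2a'(+/-) against CK2a'(+/-) mice its log2 fold change was -2.41 ± 0.66, close in size to that between zQ175 and WT, and the 2 groups did not overlap, with 1.18 to 2.49 CPM against 2.98 to 16.1 CPM. Groups of 5 and 3 failed to overlap in 8.34% of all genes in this comparison, and in the lower direction in 4.48%. The edgeR FDR of Gpx6 was 0.145, so 0 of the 10 genes passed (0.593% of all genes), also with DESeq2 (322 of 21938 genes). By edgeR Gpx6 was the single gene of the 10 with an unadjusted p under 0.05, beside 9.19% of all genes. Gpx4 was at -0.09 (95% interval -0.37 to 0.20) and Sod1 at -0.07 (-0.34 to 0.20).

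The interaction asked whether the knock-in's difference changed with the Csnk2a2 allele. It had 0 of 10 genes past FDR 0.1 by edgeR (0.00478% of all genes) and by DESeq2 (19 of 18391 genes). By edgeR 2 had an unadjusted p under 0.05, beside 5.39% of all genes. Gpx4 had a log2 term of 0.48 ± 0.18 and Sod1 of 0.43 ± 0.17, both with an edgeR FDR of 0.916. For Gpx6 the term was -0.02, with a 95% interval of -2.12 to 2.08.

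The genes most like the 3 called ones over the 18 libraries were sought among 16648 genes with a mean of at least 1 CPM, by Pearson correlation of log2 CPM. For Gpx4 they were Rps3 (r = 0.95), a ribosomal protein gene, and Uqcr11 and Uqcrq (both r = 0.94), subunits of mitochondrial complex III. For Sod1 they included the ribosomal protein genes Fau (r = 0.92) and Rps24 (r = 0.90). For Gpx6 they were Rap1gap (r = 0.89), an inhibitor of the GTPase RAP1, Lpcat4 (r = 0.88), an acyltransferase of phospholipids, and Vmp1 (r = 0.87), an autophagy gene. These correlations span the 4 genotypes and share the libraries and their depth.

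The wider antioxidant system was read from 8 lists of 103 genes in all, of which 97 were tested. In zQ175 against WT mice 7 of the 97 were lower past FDR 0.1 and 0 were higher, beside 0.712% and 0.387% of all genes, and 60 of 97 had a negative log2 fold change with a median of -0.11. The 7 were spread over 4 lists, and the lists for glutathione synthesis, glutathione transferases, NRF2 regulators and ferroptosis held 0. The count was 0 with only the WT and zQ175 mice fitted, where 0 of all genes passed. It also fell to 0 without the choroid-high libraries, and without WT replicate 1, WT replicate 3 or zQ175 replicate 5 alone. The calls over all genes, 230 with every mouse, fell in these last 4 fits to 1, 10, 0 and 0, in the same order.

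Peroxiredoxins and thioredoxins, which reduce peroxides through reactive cysteines, held 3 of the 7, with 3 of 19 tested genes called and a list median of -0.15. Txn2, the mitochondrial thioredoxin, stood at 50.7 to 60.7 CPM in WT and 40.7 to 45.0 CPM in zQ175 mice, without overlap, and fell by 0.33 on the log2 scale (edgeR FDR 0.0610). Prdx6 stood at 91.1 to 106.9 CPM in WT and 62.4 to 88.9 CPM in zQ175 mice, also without overlap, and fell by 0.37 on the log2 scale (FDR 0.0902). Prdx5 stood at 58.3 to 79.5 and 45.0 to 64.1 CPM, with overlap, and fell by 0.41 (FDR 0.0902). Non-overlapping lower ranges occurred in 1.19% of all genes in this comparison.

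Of the NRF2 targets 2 of 18 passed, with a list median of -0.11. Fth1, the ferritin heavy chain that stores iron, stood at 1085 to 1291 CPM in WT, 777.0 to 925.1 CPM in zQ175, 1077 to 1462 CPM in CK2a'(+/-) and 834.7 to 1014 CPM in zQ175:CK2a'(+/-) mice. The zQ175 mice lay below the WT mice and the zQ175:CK2a'(+/-) mice below the CK2a'(+/-) mice without overlap, which 1.19% and 4.48% of all genes also did. Fth1 fell by 0.45 ± 0.087 on the log2 scale in zQ175 against WT (edgeR FDR 0.0469), and was the only gene of these lists that also passed in zQ175:CK2a'(+/-) against CK2a'(+/-), at -0.41 ± 0.099 (FDR 0.0966), so that 1 of 97 genes was called there beside 0.593% of all genes. Taldo1, a transaldolase of the pentose phosphate pathway, stood at 60.5 to 72.4 CPM in WT and 40.5 to 54.0 CPM in zQ175 mice and fell by 0.44 (FDR 0.0469). Hmox1, the inducible heme oxygenase, had the largest change among the list's genes with a mean of at least 1 CPM, at -0.70 ± 0.26 (FDR 0.236). Osgin1, which averaged 0.425 CPM, had the highest value of the list at 0.80 ± 0.77 (FDR 0.697). Of the 11 NRF2 regulators 0 passed by edgeR, 6 had a negative log2 fold change and the median was -0.026, with 2 lower and 2 higher at an unadjusted p under 0.05. Values ran from -1.52 for Maff, which averaged 0.996 CPM, to 0.40 ± 0.19 for Nfe2l3. Keap1, which holds NRF2 back, was at 0.24 ± 0.11 (FDR 0.319).

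The remaining lists added 2 calls. Park7, which encodes the redox-sensitive protein DJ-1, stood at 51.2 to 76.9 CPM in WT and 43.7 to 55.7 CPM in zQ175 mice and fell by 0.45 (edgeR FDR 0.0772), the only call among 10 superoxide-related genes, whose list median was -0.38. Ncf1 and Cyba, parts of the NADPH oxidase, were at -0.62 ± 0.29 (FDR 0.349) and -0.50 ± 0.36 (FDR 0.582). Selenom, a selenoprotein of the endoplasmic reticulum, stood at 49.0 to 71.2 CPM in WT and 39.4 to 47.1 CPM in zQ175 mice, without overlap, and fell by 0.48 (FDR 0.0779). It was the only call among 15 genes of selenoprotein synthesis and selenium supply, whose median was 0.02, and Sepsecs, an enzyme of selenocysteine synthesis, was at 0.36 ± 0.14 (FDR 0.242).

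Of 11 genes of glutathione synthesis, recycling and transport 0 passed by edgeR and 0 had an unadjusted p under 0.05, with a median of -0.11, and the largest values were those of Chac1 at -0.30 ± 0.26 and Oplah at -0.23 ± 0.17. Of 11 glutathione transferases 0 passed by edgeR and 3 had an unadjusted p under 0.05. Gstm5 was at -0.42 ± 0.12 (edgeR FDR 0.117) and Gstm7 at -0.34 ± 0.16 (FDR 0.346). Of 8 genes of lipid peroxidation and ferroptosis, the process that GPX4 restrains, 0 passed by edgeR, with Acsl4 at 0.45 ± 0.13 (FDR 0.131) and Lpcat3 at -0.23 ± 0.12 (FDR 0.419). Gstm5 was called lower with DESeq2, with the robust edgeR fit and with no filter, and Acsl4 was called higher with DESeq2 and with no filter.

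**Figure D4:**
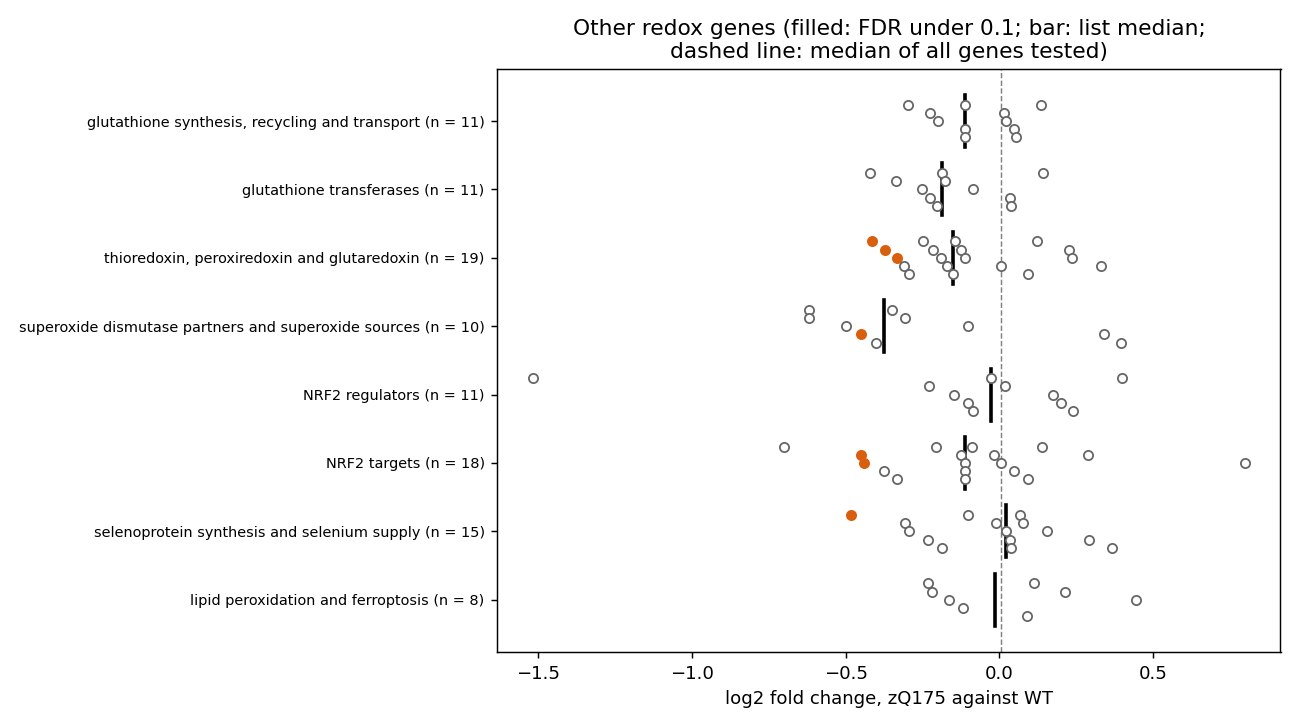
Log2 fold change in zQ175 against WT mice (x axis) of the tested genes in 8 lists of redox genes (y axis), with 1 point per gene, filled where the edgeR FDR was under 0.1, a black bar at each list's median and a dashed line at the median of all 20914 genes. The 7 genes with filled points all lie left of 0, between -0.48 and -0.33.

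The promoters were searched for the core of the antioxidant response element to which NRF2 binds, spelled TGACNNNGC, on both strands, in windows of 300 bases around the RefSeq start sites of GRCm38.p6. All 10 genes matched the table, with 13 windows, and 2 genes held the core. They are shown with 10 bases on either side, on the gene's strand, with the core in capitals.
Nfe2l2, chr2:75704614-75704913 window, minus strand, core from base -240: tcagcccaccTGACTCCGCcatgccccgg
Sod1, chr16:90220512-90220811 window, plus strand, core read on the opposite strand from base -56: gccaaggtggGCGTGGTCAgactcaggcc

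Of all 32851 promoter windows 12.4% held the core, beside 15.4% of the 13 windows of these genes, and of all 27025 genes 14% held it, beside 20% of these 10. Of the 3 genes called in zQ175 against WT mice Sod1 held it, and the windows of Gpx4 and Gpx6 did not hold these letters. A match is a description of the sequence and not a measured binding site.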

How the data were processed

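Striatal RNA of 18 mice was sequenced by the authors on one flow cell lane after preparation with a stranded total RNA kit. The authors trimmed reads (Trimmomatic), aligned them to GRCm38 (HISAT2 2.1.0), removed unmapped reads and those with duplicated mappings or low mapping quality, and deposited raw read counts per gene from Subread 1.6.2, beside other values, the deposited exon lengths in bases. Whether counting used the strand is not given in the sources used here. No exon base of the 10 genes is shared with another gene on either strand in the GENCODE gene models.

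Groups were taken from the labels, which give neither sex nor batch. Per the study's methods the groups differ in their sex ratios. The genes and lists were chosen with earlier results of these data known. Counts were normalized by TMM and tested with edgeR 4.0.16 (R 4.3.3) by quasi-likelihood in a single fit of 18 libraries with genotype as the only factor, on the 20914 genes kept by filterByExpr, at a Benjamini-Hochberg FDR of 0.1. CPM used the TMM library sizes, log2 CPM a prior count of 2, and 95% intervals the t distribution with the fit's degrees of freedom. Total counts per library set the counting precision, and each test set a genotype difference against the spread between mice, estimated over the 18 libraries.

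Named genes were all 10 genes, the list genes past FDR 0.1 or with the 2 largest changes per list at a mean of at least 1 CPM, the 3 genes most like each called gene, Csnk2a2, and, added after their values were seen, Gpx2, Gpx5, Gpx4-ps2, Gm8566, Maff, Osgin1 and C1qa. Another gene that the rule selects is not reported here. Alternatives were DESeq2 1.42.0 with default settings, its size factors in edgeR, 2 other filters on low counts, only the groups compared, a replicate block, an Xist covariate, a robust fit, FDR 0.05 and leaving out each mouse. Leaving out the 4 libraries with over 100 CPM of choroid plexus markers was chosen after seeing the data.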

Additional observations from a re-analysis of the deposited data

Results flagged for a closer look

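Of 30 groups of 5 mice examined, 1 for each gene and genotype with 5 mice, 5 held a mouse that stood far from the rest by Dixon's criterion, which chance meets in about 1 in 20 groups. Gpx3 was at 13.3 CPM in WT replicate 1, beside at most 4.70 CPM in the other WT mice, and at 16.6 CPM in zQ175 replicate 1, beside at most 3.44 CPM in the other zQ175 mice. Sod1 was at 150.1 CPM in zQ175 replicate 4, beside 126.4 to 133.0 CPM in the others. Sod2 was at 146.8 CPM in WT replicate 4, beside 132.6 to 134.9 CPM. Nfe2l2 was at 17.6 CPM in zQ175:CK2a'(+/-) replicate 2, one of the libraries high in choroid plexus markers, beside 11.4 to 13.1 CPM in the other mice of that genotype.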

How the results depend on the processing

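The 3 genes called in zQ175 against WT mice kept their negative sign in all alternatives, with log2 fold changes of -0.67 to -0.52 for Gpx4, -0.60 to -0.38 for Sod1 and -2.71 to -1.98 for Gpx6. Their number was 3 with DESeq2, with its size factors and with either other filter, 2 (Gpx4 and Sod1) with the Xist level or the robust fit, 1 (Gpx4) at FDR 0.05, 0 with only the groups compared, where 0 of all genes passed, 0 without the choroid-high libraries, and 0 to 3 with a mouse left out. The cause was not tested. With no filter, 1 gene, Gpx6, was called in zQ175:CK2a'(+/-) against WT and 1, also Gpx6, against CK2a'(+/-). Of all 37580 genes tested without a filter, 85 and 297 were called in these 2 comparisons, beside 3 and 124 of 20914 in the main fit. The count against CK2a'(+/-) was 1 with only the groups compared, where 461 of all 18974 genes tested passed. With a mouse left out it was 0 to 1. It was 1 without WT replicate 4 or 5, where 165 and 151 of all genes passed. The 3 other comparisons stayed at 0.

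Mice with the same replicate number did not deviate together (correlations of deviations -0.14 to 0.12), so the numbers do not pair the mice. With a replicate block 1 gene, Gpx4, was called in zQ175 against WT (FDR 0.0979), and the calls over all genes went from 230 to 98. Over all genes, calls in that comparison were 855 with DESeq2, 451 with no filter, 51 at FDR 0.05, and 0 to 587 with a mouse left out. The pathway count of 7 was 10 lower and 1 higher with DESeq2, 9 lower and 1 higher with no filter, 9 lower with the robust fit, 6 with the Xist level, 2 with the block, 0 with only the groups compared, and 0 to 10 lower and 0 to 1 higher with a mouse left out, the latter being Acsl4 without WT replicate 2 or zQ175 replicate 4. Gpx7, Gpx8 and, in zQ175 mice, Gpx6 rest on few counts and also varied between mice, so small differences were not detectable in these libraries.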
